A study of Mus musculus with 18 samples.

Results

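*Hlf* and 6 further regulators that carry the circadian clock to its output genes were followed through injured mouse kidneys. The 7 genes were given as a list and were found by their Ensembl identifiers among the 45706 genes of the count files, and all 7 were measured in all 18 kidneys. The list was chosen by measured values: earlier results of these data were known, in which *Hlf* stood out by its fold changes between KO and control kidneys. The levels and fold changes of the 7 genes are therefore a description, with no test.

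Whole kidneys came from male C57BL/6 mice of 10 to 12 weeks in 2 cohorts. In the *Cxcl12* cohort, 5 KO mice carried Cxcl12 fl/fl, Pax8rtTA and TetOCre, and 3 littermate controls carried Cxcl12 fl/fl and Pax8rtTA without TetOCre. In the *Myc* cohort, 5 KO mice carried Myc fl/fl, Pax8rtTA and TetOCre, and 5 littermate controls carried Myc fl/fl and Pax8rtTA without TetOCre. All mice, controls included, received doxycycline for 14 days followed by 1 week without it, then 22.5 min of ischemia of both kidneys and 12 h of reperfusion. Pax8rtTA confines the deletion to tubule cells, so that vessels, leukocytes and stroma of these whole kidneys kept both genes. The mice were housed in a regular day and night cycle, and the clock time at which a kidney was taken is not given in the sources used here. No uninjured kidney was analysed here, so that values are comparisons between injured kidneys.

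The circadian clock is a transcriptional loop. CLOCK or NPAS2 with BMAL1, the product of *Arntl*, binds E-boxes and drives the *Per*, *Cry* and *Nr1d* genes, whose products shut the loop down again. The PAR bZIP proteins DBP, TEF and HLF pass this rhythm on by activating genes through D-boxes, and NFIL3 represses through the same element. BHLHE40 and BHLHE41, also known as DEC1 and DEC2, and CIART, also known as CHRONO, repress genes driven by CLOCK and BMAL1. In the kidney the clock is known for daily rhythms of filtration and of salt and water handling.

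On GRCm38, *Hlf* (ENSMUSG00000003949) lies on chromosome 11 from 90336536 to 90390895 on the minus strand. *Dbp* (ENSMUSG00000059824) lies on chromosome 7 from 45705088 to 45710203 and *Tef* (ENSMUSG00000022389) on chromosome 15 from 81802421 to 81826863, both on the plus strand. *Nfil3* (ENSMUSG00000056749) lies on chromosome 13 from 52967209 to 52981073 and *Ciart* (ENSMUSG00000038550) on chromosome 3 from 95878503 to 95882251, both on the minus strand. *Bhlhe40* (ENSMUSG00000030103) and *Bhlhe41* (ENSMUSG00000030256) share chromosome 6, at 108660629 to 108666925 on the plus strand and at 145858243 to 145865558 on the minus strand.

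The 3 stretches printed next show how the starts of these genes differ in clock elements. Each stretch lies within the 250 bases before a RefSeq transcript start on GRCm38.p6, is free of annotated exons and runs 5′ to 3′ on the strand of its gene. Capitals mark exact matches to the E-box CACGTG or to the cyclic AMP response element TGACGTCA.
*Hlf*, chr11:90390918-90391167, minus strand: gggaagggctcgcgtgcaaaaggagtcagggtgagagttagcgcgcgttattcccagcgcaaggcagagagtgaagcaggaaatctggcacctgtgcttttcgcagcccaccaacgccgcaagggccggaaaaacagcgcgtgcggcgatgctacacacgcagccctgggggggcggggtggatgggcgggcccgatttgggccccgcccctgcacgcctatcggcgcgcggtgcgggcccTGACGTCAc
*Tef*, the downstream of 2 starts, chr15:81811164-81811413, plus strand: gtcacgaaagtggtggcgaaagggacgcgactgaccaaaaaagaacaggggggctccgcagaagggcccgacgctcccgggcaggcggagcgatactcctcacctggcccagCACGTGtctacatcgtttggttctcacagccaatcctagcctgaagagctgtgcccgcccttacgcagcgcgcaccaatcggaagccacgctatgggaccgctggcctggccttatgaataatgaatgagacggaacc
*Ciart*, chr3:95882252-95882478, minus strand: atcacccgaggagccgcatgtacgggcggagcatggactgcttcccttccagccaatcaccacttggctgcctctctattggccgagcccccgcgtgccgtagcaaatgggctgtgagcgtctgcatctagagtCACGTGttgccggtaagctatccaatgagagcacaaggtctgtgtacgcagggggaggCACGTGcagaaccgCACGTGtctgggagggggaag

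*Ciart* held 3 E-boxes, which began 116, 58 and 44 bases before the RefSeq start. *Tef* held 1 E-box in the window of each of its 2 starts, and *Bhlhe41* held 1 that began 153 bases before its start. The windows of *Hlf*, *Dbp* and *Nfil3* held none, and *Bhlhe40* had no entry. Among all 32851 RefSeq windows of the same length, 6.02% held an E-box. *Hlf* held 1 cyclic AMP response element, which began 9 bases before the start, an element found in 1.55% of all windows. The D-boxes TTATGTAA and TTACGTAA were found in 0.931% of all windows and in none of the members' windows, while *Per3* of the core clock held 2. Motifs were searched on both strands, and a match says only that these letters are in the window.

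Reads assigned to genes numbered 12918220 to 29749500 in a library, and single regulators had from 27 reads (*Ciart*) to 8140 reads (*Bhlhe40*) in a kidney. Levels are given as CPM, the read count of a gene brought to a common library size with the scaling of the TMM method. The target genes went with their labels. *Cxcl12* lay between 26.3 and 40.8 CPM in *Cxcl12* KO and between 44.9 and 60.4 CPM in *Cxcl12* control kidneys, and *Myc* between 26.6 and 37.0 CPM in *Myc* KO and between 79.6 and 117 CPM in *Myc* control kidneys. Tubule markers such as *Slc34a1* and *Umod* had reads in every kidney. A marker of the collecting duct list, however, had 0 reads in 9 kidneys and never more than 2. Of 3 adrenal markers *Cyp11b1* and *Cyp21a1* had 0 reads in 15 and 14 kidneys and never more than 2. The third, *Star*, which carries cholesterol into mitochondria, had 31 to 173 reads in every kidney, with 3.76 to 6.69 CPM in the *Cxcl12* and 1.91 to 3.74 CPM in the *Myc* cohort. Of 3 fat markers, *Adipoq* and *Ucp1* had 0 reads in 2 kidneys each and reached 207 and 346 reads, and *Cidec* had 26 to 726 reads. The part of these tissues in the results was not tested. The share of unmapped reads was below 5% in 6 libraries, which were also the 6 largest. They were 2 *Cxcl12* KO, 2 *Myc* KO and 2 *Myc* control kidneys, called the deeper kidneys here.

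*Hlf*, the hepatic leukemia factor and the third of the PAR bZIP activators, had its highest levels in *Cxcl12* control kidneys, where it stood at 61.2, 64.6 and 65.2 CPM. In *Cxcl12* KO kidneys it stood at 34.8, 36.4, 27.7, 22.1 and 19.1 CPM. All 5 KO kidneys lay below all 3 controls. The log2 fold change was -1.18 ± 0.18 (standard error of the edgeR fit, n = 5 and 3), that is, 0.441 times the control level. The 2 deeper *Cxcl12* KO kidneys were the 2 highest of the 5, and without them the mean of log2 CPM was 1.48 lower in KO than in control kidneys (-1.48, n = 3 and 3). No *Cxcl12* control kidney was among the deeper ones, and the part of depth in the value was not tested.

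In the *Myc* cohort *Hlf* went the other way. *Myc* control kidneys had 38.6, 33.1, 32.8, 28.1 and 33.5 CPM of *Hlf*, and *Myc* KO kidneys had 40.3, 46.5, 40.9, 55.4 and 33.3 CPM. The KO kidneys tended to be higher, with 4 of 5 above every control and the remaining kidney, at 33.3 CPM, inside the control range. The log2 fold change was 0.38 ± 0.13 (standard error, n = 5 and 5). Among kidneys that are not deeper, mean log2 CPM of *Hlf* differed by 0.58 between KO and control kidneys of this cohort (n = 3 and 3), against 0.05 within the deeper kidneys (n = 2 and 2).

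The order of the 4 groups was thus *Cxcl12* control at 63.7 ± 2.16 CPM (SD, n = 3), *Myc* KO at 43.3 ± 8.24 CPM (SD, n = 5), *Myc* control at 33.2 ± 3.70 CPM (SD, n = 5) and *Cxcl12* KO at 28.0 ± 7.59 CPM (SD, n = 5). Kidneys of *Cxcl12* controls overlapped with no other group. The other neighbours in this order overlapped: *Myc* KO with *Myc* control and *Myc* control with *Cxcl12* KO. Control kidneys, which keep *Cxcl12* and *Myc*, differed between the cohorts by a log2 fold change of -0.93 ± 0.10 for *Hlf* (*Myc* control against *Cxcl12* control, n = 5 and 3). The KO contrast of the *Cxcl12* cohort and this contrast share the same 3 control kidneys. Cohort and floxed line cannot be told apart in it, and in whole kidneys fewer cells of a type and less RNA per cell cannot be told apart either.

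**Figure D1:**
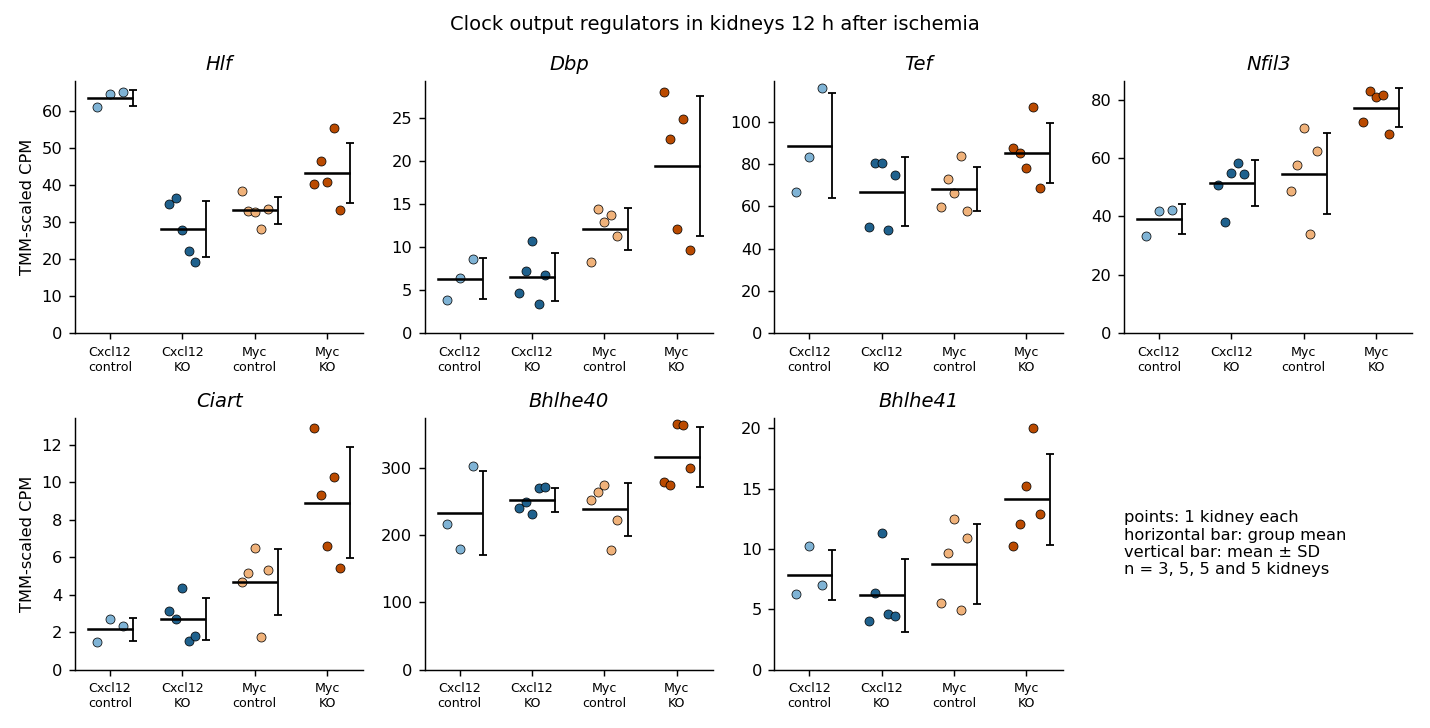
TMM-scaled CPM (vertical axes, starting at 0) of the 7 regulators in each kidney of the 4 groups, with the group mean as a horizontal bar and the SD as a vertical bar. *Hlf* is the panel in which the 3 *Cxcl12* control kidneys, at 61.2 to 65.2 CPM, stand above all 15 other kidneys, of which the highest reached 55.4 CPM.

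*Dbp*, the D-box binding protein gene which is strongly rhythmic in many tissues, had its lowest values in the *Cxcl12* cohort. *Cxcl12* control kidneys had 3.87, 6.45 and 8.66 CPM and *Cxcl12* KO kidneys had 4.62, 7.23, 10.7, 3.38 and 6.69 CPM, so that the ranges overlapped almost wholly. *Myc* control kidneys had 8.24, 14.5, 12.9, 13.7 and 11.3 CPM of *Dbp*. *Myc* KO kidneys split, with 28.1, 22.5 and 24.9 CPM in replicates 1, 2 and 4 and 12.1 and 9.59 CPM in replicates 3 and 5, which are the deeper ones. The log2 fold change of *Dbp* was 0.03 ± 0.35 in the *Cxcl12* cohort and 0.67 ± 0.27 in the *Myc* cohort (standard error). Mean log2 CPM in *Myc* KO and control kidneys differed by 0.93 among kidneys that are not deeper (n = 3 and 3) and by 0.06 within the deeper kidneys (n = 2 and 2). Of the exon bases of *Dbp*, 539 of 2993 are shared with *Sphk2* on the opposite strand, and the counts used ignore the strand.

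*Tef*, the thyrotroph embryonic factor and the most abundant PAR bZIP transcript here, had 67.0, 83.6 and 116 CPM in *Cxcl12* control kidneys. The *Cxcl12* KO kidneys had 50.2, 80.8, 80.4, 48.9 and 75.0 CPM of *Tef*. The groups overlapped, with 2 KO kidneys below the lowest control and 3 inside the control range, and the log2 fold change was -0.41 ± 0.21. In the *Myc* cohort *Tef* had 59.9, 73.1, 66.6, 84.0 and 58.0 CPM in control kidneys and 87.8, 85.2, 78.3, 107 and 68.7 CPM in KO kidneys, a log2 fold change of 0.32 ± 0.13. There 3 of 5 KO kidneys lay above every control.

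*Nfil3*, which encodes the repressor that competes with these activators at D-boxes, had higher mean levels in the KO kidneys of both cohorts, and its groups overlapped in both. *Cxcl12* control kidneys had 33.3, 41.9 and 42.2 CPM and *Cxcl12* KO kidneys had 50.9, 38.0, 54.9, 58.2 and 54.6 CPM, of which 4 lay above every control. *Myc* control kidneys had 48.9, 57.8, 70.4, 34.0 and 62.3 CPM of *Nfil3* and *Myc* KO kidneys had 72.5, 83.2, 81.0, 81.8 and 68.3 CPM, again with 4 of 5 above every control. Its log2 fold changes were 0.39 ± 0.14 and 0.50 ± 0.16. *Hlf* and *Nfil3* therefore had opposite signs in the *Cxcl12* cohort and the same sign in the *Myc* cohort.

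The ratio of *Hlf* to *Nfil3* combines the levels given above. *Cxcl12* control kidneys had the highest *Hlf*, for which it was listed, and the lowest mean *Nfil3*. Their ratio was therefore bound to be high and is a description. The log2 ratio of *Hlf* to *Nfil3* CPM was 0.71 ± 0.15 (SD, n = 3) in *Cxcl12* control kidneys, with 0.62 as the lowest value. It was -0.90 ± 0.60 in *Cxcl12* KO, -0.68 ± 0.36 in *Myc* control and -0.85 ± 0.18 in *Myc* KO kidneys (SD, n = 5 each), and its highest value in any of these 15 kidneys was -0.06. Since this ratio is not scaled by exon length, only its differences between groups are read. The ratio of *Tef* to *Nfil3* was 1.16 ± 0.27 in *Cxcl12* control kidneys and between 0.13 and 0.37 on average in the other groups on the same log2 scale, where single kidneys of the *Cxcl12* KO and *Myc* control groups overlapped with them.

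*Ciart*, whose product represses CLOCK and BMAL1, was scarce in the *Cxcl12* cohort. Its control kidneys there had 1.49, 2.69 and 2.33 CPM and its KO kidneys 3.12, 2.73, 4.35, 1.55 and 1.80 CPM. *Myc* control kidneys had 4.70, 5.17, 6.49, 1.72 and 5.33 CPM of *Ciart*. *Myc* KO kidneys had 12.9, 9.34, 6.62, 10.3 and 5.43 CPM, of which 4 lay above every control and the lowest lay inside the control range. The log2 fold changes of *Ciart* were 0.31 ± 0.35 and 0.90 ± 0.30. Mean log2 CPM in the *Myc* cohort differed by 1.54 between KO and control kidneys that are not deeper (n = 3 and 3) and by 0.12 within the deeper kidneys (n = 2 and 2).

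*Bhlhe40*, the hypoxia-inducible repressor DEC1, was the most abundant of the 7 genes. *Cxcl12* control kidneys had 217, 180 and 302 CPM and *Cxcl12* KO kidneys had 240, 249, 231, 271 and 271 CPM, all within the control range. *Myc* control kidneys had 253, 264, 275, 177 and 222 CPM and *Myc* KO kidneys had 278, 275, 365, 364 and 300.3 CPM of *Bhlhe40*, of which 4 lay above every control. Its log2 fold changes were 0.11 ± 0.15 for *Cxcl12* KO and 0.41 ± 0.13 for *Myc* KO.

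*Bhlhe41*, its relative DEC2, had 6.30, 10.2 and 7.05 CPM in *Cxcl12* control and 4.00, 6.36, 11.3, 4.60 and 4.46 CPM in *Cxcl12* KO kidneys. In *Myc* control kidneys *Bhlhe41* had 5.55, 9.69, 12.5, 4.98 and 10.9 CPM. The *Myc* KO kidneys had 10.3, 12.1, 15.2, 20.0 and 12.9 CPM, with 3 of 5 above every control. The log2 fold changes were -0.38 ± 0.32 and 0.69 ± 0.26. Of its exon bases, 19.1% are shared with Gm43909 on the opposite strand, which the counts cannot separate.

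The split by depth was uneven over the 7 genes in the *Myc* cohort. Unlike the small values of *Hlf*, *Dbp* and *Ciart* within the deeper kidneys, *Bhlhe41* had a KO minus control difference in mean log2 CPM of 0.74 both outside (n = 3 and 3) and within them (n = 2 and 2). This difference was 0.67 outside and 0.34 within for *Nfil3*, 0.47 and 0.33 for *Bhlhe40*, and 0.39 and 0.22 for *Tef*. All 7 were above 0 in either selection, and no test was run on them.

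Over the list, 0 of 7 regulators passed an adjusted p of 0.05 in the *Cxcl12* cohort, where edgeR's quasi-likelihood test called 0 of 15154 genes (0.0%). In that comparison 1976 genes had an unadjusted p under 0.05, DESeq2 called 353 genes with *Hlf* among them, and limma voom called 0. *Hlf* was the only member whose groups did not overlap, as 9.69% of all genes tested did, 4.71% with KO lower. For *Myc* KO 0 of 7 passed, against 246 of 14936 genes (1.65%), and the groups of all 7 overlapped, whereas 5.97% of all genes tested had groups that did not. All 7 log2 fold changes were above 0 there, from 0.32 to 0.90 with a median of 0.50, as were 49.9% of all genes with a median of -0.00083. In the *Cxcl12* cohort 4 of 7 were above 0, as were 50.2% of all genes, with a median of 0.03 against 0.00083 over all genes.

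Between the control groups 1 of 7 passed, *Hlf*, against 202 of 15276 genes (1.32%, and 0.628% lower). The log2 differences of the others, *Myc* control against *Cxcl12* control, were 0.95 ± 0.26 for *Dbp*, 1.13 ± 0.38 for *Ciart*, 0.49 ± 0.20 for *Nfil3*, -0.37 ± 0.18 for *Tef*, 0.16 ± 0.31 for *Bhlhe41* and 0.04 ± 0.18 for *Bhlhe40*. Among these 6 genes the groups overlapped, so that *Hlf* alone of the 7 did not overlap and was lower, against 12.3% of all genes without overlap and 5.98% lower without it. Of the 7 differences 5 were above 0, against 50.9% of all genes. For the difference between the *Myc* KO and the *Cxcl12* KO fold change, 1 of 7 passed, again *Hlf*, against 11 of 15903 genes (0.0692%, and 0.0314% higher). All 7 values were above 0, against 49.0% of all genes. That difference was 1.56 ± 0.23 on the log2 scale for *Hlf*, 1.07 ± 0.44 for *Bhlhe41*, 0.73 ± 0.26 for *Tef*, 0.64 ± 0.48 for *Dbp*, 0.60 ± 0.50 for *Ciart*, 0.29 ± 0.21 for *Bhlhe40* and 0.11 ± 0.23 for *Nfil3*. Since *Hlf* was listed for its place in these contrasts, nothing is read from these counts.

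**Figure D2:**
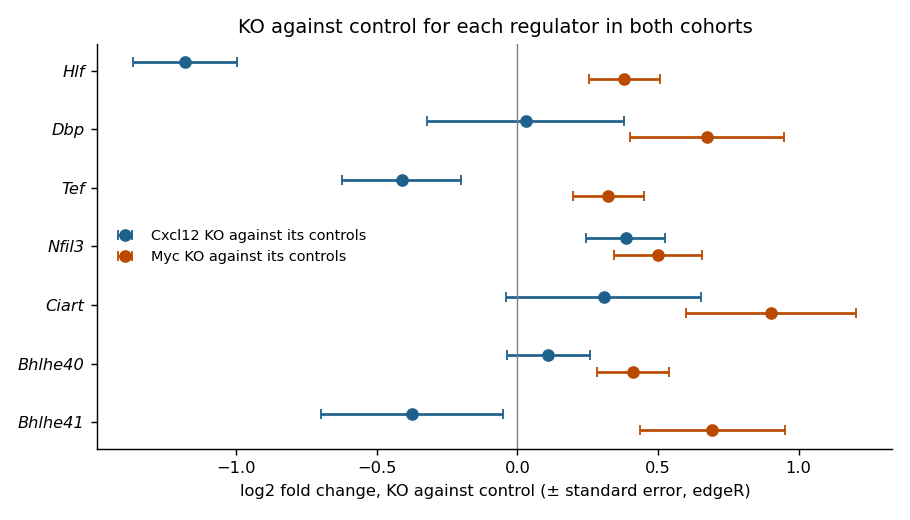
Log2 fold change (horizontal axis) of each regulator, KO against control, in the *Cxcl12* cohort (n = 5 and 3) and the *Myc* cohort (n = 5 and 5), with the standard error of the edgeR fit as bars. All 7 *Myc* values lie right of 0, from 0.32 to 0.90, and *Hlf* at -1.18 lies farthest left in the *Cxcl12* cohort.

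Divided by exon length, as CPM per kilobase, levels can be set side by side between genes. *Bhlhe40* led with a median of 56.8 over the 18 kidneys, followed by *Nfil3* at 27.8, *Tef* at 9.74, *Hlf* at 5.33, *Dbp* at 3.39, *Ciart* at 2.00 and *Bhlhe41* at 1.48. *Bhlhe40* exceeded *Nfil3*, *Nfil3* exceeded *Tef*, and *Dbp* exceeded *Ciart* in 18 of 18 kidneys. *Tef* exceeded *Hlf* in 17, *Hlf* exceeded *Dbp* in 14 and *Ciart* exceeded *Bhlhe41* in 15 of 18 kidneys. The order of *Hlf* and *Dbp* thus depended on the kidney. In *Cxcl12* control kidneys *Hlf* had 9.53 and *Dbp* 2.11 on this scale, whereas in *Myc* KO kidneys both had a mean near 6.5 (6.48 and 6.49).

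Markers of injury and of other cells were read beside *Hlf*. The summed CPM of 5 tubular injury markers was 9822 to 11717 in *Cxcl12* control and at least 12514 in every other kidney. *Spp1*, which encodes osteopontin, made up most of this sum, at 8886 ± 1357 CPM (SD, n = 3) in *Cxcl12* control kidneys. Of the 5, *Lcn2* alone, which encodes lipocalin 2, separated these kidneys from all others, at 470.2 to 613 CPM against at least 684 CPM. *Spp1* and *Krt20*, a keratin gene, overlapped, with a highest *Cxcl12* control at 10116 and 1097 CPM and a lowest *Cxcl12* KO kidney at 9532 and 984 CPM. *Havcr1*, which encodes KIM-1, had 624 ± 65.8 CPM in *Cxcl12* control (SD, n = 3), 673 ± 287 in *Cxcl12* KO, 506 ± 298 in *Myc* control and 203 ± 79.3 in *Myc* KO kidneys (SD, n = 5 each). *Vcam1* had a mean of 26.7 CPM in *Cxcl12* control and 24.4 CPM in *Cxcl12* KO kidneys. Of the 5 leukocyte markers, *S100a8* passed the test between the control groups, higher in *Myc* controls (log2 fold change 2.52 ± 0.44, adjusted p = 0.025 from edgeR, kept in 6 of 13 alternatives and 0.054 to 0.13 without any 1 *Cxcl12* control or without *Myc* control kidney 2 or 5). The leukocyte sum was 47.5 to 53.4 CPM in *Cxcl12* control kidneys against 49.1 to 90.2 in *Cxcl12* KO, 56.4 to 123 in *Myc* control and 91.1 to 129 in *Myc* KO kidneys, so that *Cxcl12* KO overlapped with its controls. Most of the difference in this sum between the control groups lay in *S100a8*, with means of 5.78 and 32.8 CPM. Of the 5 leukocyte markers 4 had a log2 fold change above 0 in that contrast, and 2 were higher in *Myc* controls without overlap. The 1 below 0 was *Cd68*, with means of 19.4 CPM in *Cxcl12* and 17.0 CPM in *Myc* controls. Of all genes tested, 12.3% had control groups without overlap. The proximal tubule sum of 5 markers was 3743 to 3972 CPM in *Cxcl12* control, 3126 to 3491 in *Cxcl12* KO, 2903 to 3623 in *Myc* control and 2799 to 4209 in *Myc* KO kidneys. Every *Cxcl12* control kidney lay above every *Cxcl12* KO and *Myc* control kidney in this sum. These markers had the signs of *Hlf*, with 5 of 5 log2 fold changes below 0 for *Cxcl12* KO and between the control groups. For *Myc* KO and for the difference between the KO fold changes 5 of 5 were above 0, in the latter from 0.26 to 1.49. Of these 5 markers 0 passed in any comparison. The part of all these markers in the values of *Hlf* was not tested. Within groups, none of 84 correlations of the members with marker sums, depth or the unmapped share passed the adjustment. The highest was *Bhlhe41* with the endothelium sum (r = 0.77, permutation p = 0.00092, adjusted p = 0.077). The lowest was *Dbp* with total reads (r = -0.57, permutation p = 0.023, adjusted p = 0.65). The correlations of *Hlf* lay between -0.34 and 0.48. For *Hlf* these pooled values differed from those taken apart by depth, over the 12 other and the 6 deeper kidneys. There r was -0.80 and 0.98 with the proximal tubule sum, 0.86 and -0.46 with the endothelium sum, 0.76 and -0.40 with the leukocyte sum, 0.73 and -0.80 with the tubular injury sum and 0.73 and -0.66 with the distal convoluted tubule sum. The 6 deeper kidneys are 3 pairs, so that r within them rests on 3 differences, and no p was computed for these values.

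**Figure D3:**
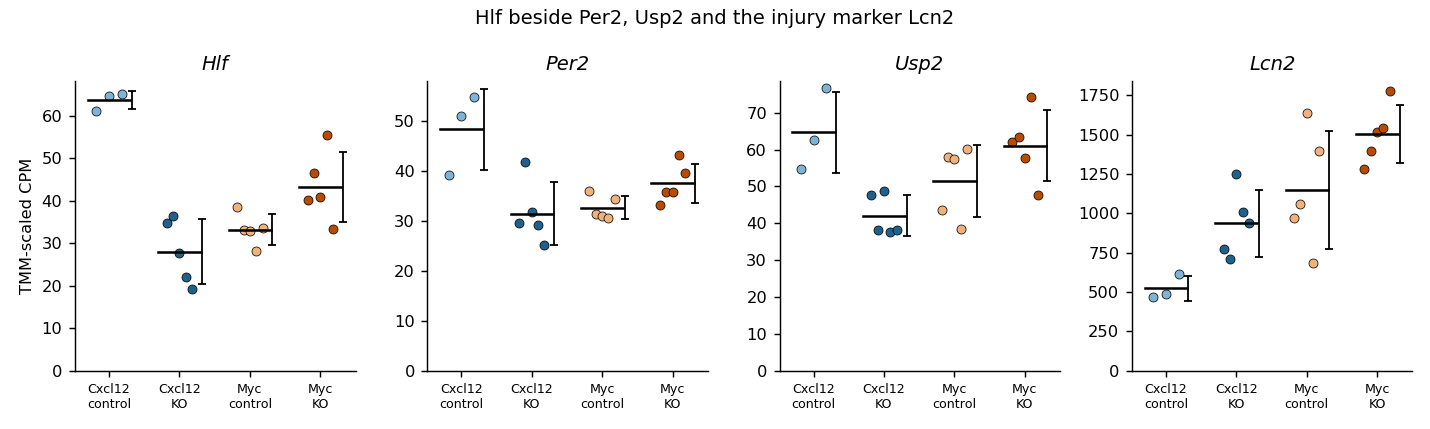
TMM-scaled CPM (vertical axes, starting at 0) of *Hlf*, of the clock gene *Per2*, of the clock-controlled gene *Usp2* and of the injury marker *Lcn2* in each kidney, with group mean and SD. *Cxcl12* control kidneys are highest for *Hlf*, and lowest for *Lcn2* at 470.2 to 613 CPM.

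Of 15 genes of the core clock, which acts upstream of these regulators, 0 passed in the *Cxcl12* cohort. There *Per2*, a repressor of the loop, had the largest log2 fold change at -0.62 ± 0.16 (adjusted p = 0.15 from edgeR), followed by *Nr1d1*, which encodes the *Arntl* repressor REV-ERBα, at 0.58 ± 0.53. With *Myc* KO 1 of 15 passed, *Cry2*, another repressor of the loop. Its mean was 25.6 ± 2.53 CPM (SD, n = 5) for controls and 35.4 ± 4.64 CPM (SD, n = 5) for KO kidneys, a log2 fold change of 0.47 ± 0.10 (adjusted p = 0.041 from edgeR, 0.0028 to 0.12 over 18 alternatives, 5 of which kept it). All 5 KO kidneys lay above all controls for *Cry2*, in a comparison in which 5.97% of all genes tested had groups without overlap. The adjusted p was above 0.05, from 0.058 to 0.12, without any 1 of the 5 KO kidneys or of control kidneys 1, 2, 4 and 5. Of the list, 12 of 15 had a log2 fold change above 0 in either cohort.

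Between the control groups 1 core clock gene of 15 passed. *Per2* was lower in *Myc* controls at 32.6 ± 2.38 CPM (SD, n = 5) than in *Cxcl12* controls at 48.3 ± 8.08 CPM (SD, n = 3), a log2 fold change of -0.55 ± 0.11 (adjusted p = 0.048 from edgeR, 0.0019 to 0.19 over 13 alternatives, 6 of which kept it). It was 0.19 without *Cxcl12* control kidney 2 or 3, and 0.12, 0.095 and 0.086 without *Myc* control kidney 2, 3 or 5. For the difference between the KO fold changes 0 of 15 passed, and the 2 largest values were 0.84 ± 0.39 for *Per3* and 0.82 ± 0.18 for *Per2* (adjusted p = 0.43 and 0.068 from edgeR). *Per2* levels were 39.2, 50.9 and 54.8 CPM in *Cxcl12* control and 29.5, 41.7, 31.8, 29.1 and 25.1 CPM in *Cxcl12* KO kidneys, which overlapped in 1 KO kidney.

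Of 7 genes known to be driven by the PAR bZIP factors in liver or kidney, 6 could be tested, since *Nr1i3* was too low, and 0 passed in any comparison. *Pdxk*, which encodes pyridoxal kinase, had the largest value in the *Cxcl12* cohort at -0.38 ± 0.14 (adjusted p = 0.31 from edgeR), followed by *Ppara* at -0.30 ± 0.17. With *Myc* KO *Cyp2b10*, a drug-metabolising enzyme gene with at most 4.70 CPM in any kidney, had 0.67 ± 0.30 and *Pdxk* -0.36 ± 0.23. Between the control groups the largest values were 1.68 ± 0.69 for *Cyp2b10* and -0.82 ± 0.29 for *Cyp2a5*. *Pdxk* levels were 193 to 233 CPM in *Cxcl12* control and 77.6 to 177 CPM in *Myc* control kidneys. These groups did not overlap, as was so for 12.3% of all genes tested. The differences between the KO fold changes were led by *Cyp2b10* at 0.61 ± 0.78 and *Alas1*, the rate-limiting enzyme gene of heme synthesis, at -0.37 ± 0.25. The medians of the list were -0.11 for *Cxcl12* KO and -0.14 for *Myc* KO on the log2 scale, beside 0.00083 and -0.00083 over all genes.

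Of 9 genes known for daily rhythms in kidney, 8 could be tested and 0 passed in any comparison. *Usp2*, a clock-controlled ubiquitin protease gene, had 54.8, 62.5 and 76.6 CPM in *Cxcl12* control and 47.8, 38.1, 48.6, 37.6 and 38.1 CPM in *Cxcl12* KO kidneys. These groups did not overlap, as was so for 9.69% of all genes tested, at a log2 fold change of -0.62 ± 0.13 (adjusted p = 0.097 from edgeR). *Nampt*, which sets the pace of NAD salvage, had -0.33 ± 0.12 for *Cxcl12* KO and -0.27 ± 0.09 for *Myc* KO. *Slc9a3*, the sodium-proton exchanger of the proximal tubule, was 64.3 ± 18.3 CPM (SD, n = 5) in *Myc* control and 104 ± 15.5 CPM (SD, n = 5) in *Myc* KO kidneys, a log2 fold change of 0.69 ± 0.18 (adjusted p = 0.070 from edgeR). Between the control groups the largest values were -0.32 ± 0.16 for *Usp2* and 0.29 ± 0.21 for *Sgk1*. The differences between the KO fold changes were 0.86 ± 0.21 for *Usp2* and 0.77 ± 0.31 for *Slc9a3* (adjusted p = 0.088 and 0.33 from edgeR).

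Hypoxia and glucocorticoids are both known to act on clock genes, and lists of their target genes were read beside the regulators. Of 10 hypoxia-induced genes, 0 passed in either cohort. *Car9* and *Egln3* had the largest values in the *Cxcl12* cohort at -0.93 ± 0.38 and -0.36 ± 0.15, and *Vegfa* and *Slc2a1* in the *Myc* cohort at 0.28 ± 0.11 and 0.24 ± 0.11. *Egln3*, an oxygen-sensing prolyl hydroxylase gene, passed between the control groups, at 21.2 ± 1.68 CPM (SD, n = 3) for *Cxcl12* controls and 8.27 ± 0.913 CPM (SD, n = 5) for *Myc* controls (log2 fold change -1.34 ± 0.12, adjusted p = 0.00098 from edgeR). *Bhlhe40*, itself hypoxia-inducible, had 0.04 ± 0.18 in that contrast. The differences between the KO fold changes were led by *Car9* at 0.97 ± 0.55 and *Ndrg1* at -0.30 ± 0.24, and 0 of 10 passed.

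Of 6 glucocorticoid-induced genes, 0 passed in any comparison. *Dusp1* and *Mt2* had the largest log2 fold changes in the *Cxcl12* cohort at 0.70 ± 0.30 and 0.64 ± 0.17, in the *Myc* cohort at 0.50 ± 0.19 and 0.40 ± 0.21, and between the control groups at 1.11 ± 0.31 and 0.65 ± 0.26. *Mt2*, a metallothionein gene, lay at 647 to 731 CPM in *Cxcl12* control and at 874 to 1524 CPM in *Cxcl12* KO kidneys. These groups did not overlap, as was so for 9.69% of all genes tested. The differences between the KO fold changes were led by *Cdkn1a* at -0.38 ± 0.19 and *Mt2* at -0.24 ± 0.30. The medians of these 6 log2 fold changes were 0.39 for *Cxcl12* KO and 0.22 for *Myc* KO, against 0.00083 and -0.00083 over all genes. The genes of the list differed, with values from -0.05 to 0.70 for *Cxcl12* KO and from 0.07 to 0.50 for *Myc* KO.

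Variation between kidneys of 1 group was not used to choose the genes. For each gene the group mean was subtracted from log2 CPM, and Pearson's r was taken over the 18 kidneys with a permutation test that shuffled kidneys within their group (100000 resamples, two-sided). Of the 21 pairs of members, 1 passed the adjustment. *Dbp* and *Tef* rose and fell together (r = 0.84, Spearman's rho = 0.83, permutation p = 5e-05 for either, adjusted p = 0.0010). Without the 2 kidneys farthest from the median r was 0.79, and it was 0.86 over the 12 other and 0.85 over the 6 deeper kidneys. *Hlf*, the third PAR bZIP gene, had r = 0.27 with *Dbp* and r = 0.16 with *Tef* (permutation p = 0.39 and 0.58, adjusted p = 0.75 and 0.76).

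*Dbp* and *Tef* ran against *Arntl* and *Npas2*, which encode activators of the clock. Among 105 relations of the 7 members with the 15 core clock genes, 10 passed, of which 6 belonged to *Dbp* or *Tef* with *Arntl*, *Npas2*, *Clock* or *Per3*. *Tef* had r = -0.92 with *Arntl* (rho = -0.91, permutation p = 3e-05, adjusted p = 0.0031) and r = -0.89 with *Npas2* (rho = -0.88, permutation p = 6e-05, adjusted p = 0.0031). In the *Cxcl12* controls, for instance, *Tef* at 67.0, 83.6 and 116 CPM went with *Arntl* at 31.2, 21.1 and 17.0 CPM. In the *Cxcl12* KO kidneys *Arntl* was 36.4, 19.7, 22.2, 36.0 and 26.9 CPM, highest in the 2 kidneys in which *Tef* was lowest. *Dbp* had r = -0.76 with *Npas2*, -0.75 with *Clock* and -0.74 with *Arntl* (permutation p = 0.00020, 0.0015 and 0.00087, adjusted p = 0.0063, 0.022 and 0.015). *Tef* with *Clock* did not pass (r = -0.58, permutation p = 0.018, adjusted p = 0.092). *Tef* had r = 0.83 with *Per3* (permutation p = 0.00076, adjusted p = 0.015). *Dbp* with *Per3* did not pass (r = 0.58, permutation p = 0.027, adjusted p = 0.11).

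For *Tef*, r with *Arntl* was -0.89 without the 2 farthest kidneys, -0.96 outside and -0.97 within the deeper kidneys. With *Npas2* it was -0.82, -0.97 and -0.90. For *Dbp*, r with *Npas2* was -0.80, -0.94 and -0.83 by the same 3 selections, with *Clock* -0.79, -0.73 and -0.99, and with *Arntl* -0.76, -0.90 and -0.85. The relation of *Tef* and *Per3* gave 0.77, 0.92 and 0.96. These relations held their sign in each selection. The selections share kidneys, and every r within the deeper kidneys rests on 3 differences, so that it adds little.

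Of the other 4 relations, 3 are described here. *Ciart* went with *Nr1d1* (r = 0.79, rho = 0.77, permutation p = 0.00024, adjusted p = 0.0063), and r was 0.69 without the 2 farthest kidneys, 0.92 outside and 0.60 within the deeper kidneys. *Dbp* also went with *Nr1d1* (r = 0.67, rho = 0.57, permutation p = 0.0024, adjusted p = 0.032). *Nfil3* went with *Csnk1e*, which encodes casein kinase 1 epsilon (r = 0.77, rho = 0.72, permutation p = 0.0041, adjusted p = 0.043). For these last 2, r without the 2 farthest kidneys was 0.59 each, and by rank they did not pass, with adjusted p for rho of 0.091 and 0.069. None of the 15 relations of *Hlf* and none of *Bhlhe40* passed.

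**Figure D4:**
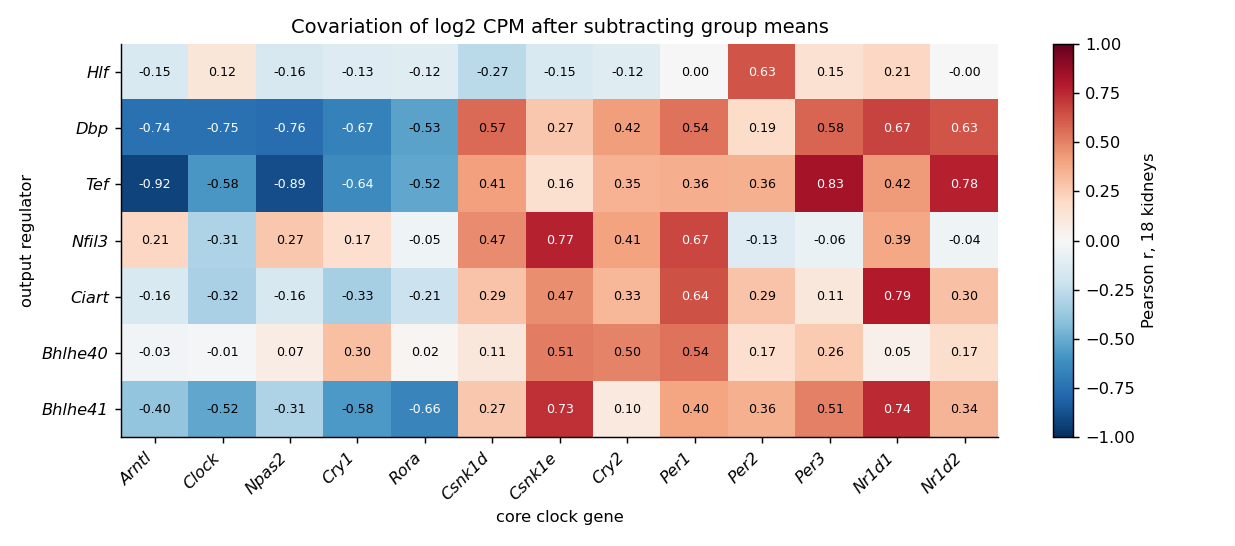
Pearson's r over 18 kidneys, after subtracting group means from log2 CPM, for each regulator (rows) and the core clock genes reported here (columns), with red for positive and blue for negative values. *Dbp* and *Tef* are blue for *Arntl*, *Clock* and *Npas2*, with *Tef* and *Arntl* at -0.92, while the *Hlf* row holds its highest value at *Per2* with 0.63.

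**Figure D5:**
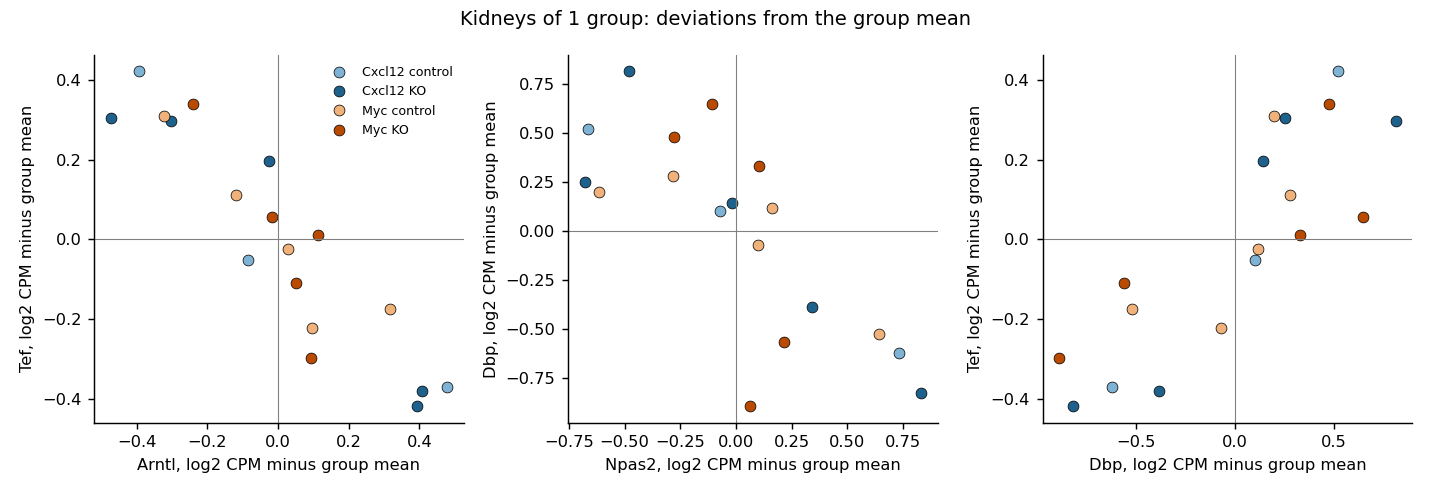
Deviation of log2 CPM from the group mean in each of the 18 kidneys for *Tef* against *Arntl*, *Dbp* against *Npas2* and *Tef* against *Dbp*, with 1 point per kidney coloured by group. Taken over the 18 kidneys the points fall in the panels for *Arntl* and *Npas2* (r = -0.92 and -0.76) and rise for *Dbp* and *Tef* (r = 0.84), and slopes were not compared between groups.

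Given as a description with no test, the genes whose variation between kidneys of a group was most like or unlike that of *Hlf* held no gene of the clock lists among the top 5 or the lowest 5. Among 11070 genes with a mean of at least 5 CPM, the highest r was 0.90 for *Fam13a*, followed by 0.85 for *Tnfsf10*, 0.80 for *Tln2*, 0.79 for *Arhgap18* and 0.79 for *Fras1*. The lowest r was -0.84 for *Bloc1s3*, followed by -0.79 for *Morf4l1*, -0.79 for *Zfp771*, -0.78 for *Ctsl* and -0.77 for *Maea*. The 18 kidneys share libraries and depth across genes. Of the core clock genes, *Per2* stood nearest to *Hlf*, with r = 0.63 at place 44. This r was 0.36 without the 2 kidneys farthest from the median, 0.77 outside and 0.18 within the deeper kidneys. With group means kept, *Per2* had r = 0.86 and took place 5. That value includes the group differences for which *Hlf* was listed, so that no likeness is read from it.

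*Fam13a*, which stood nearest to *Hlf*, had log2 fold changes of -0.51 ± 0.16 in the *Cxcl12* cohort, 0.28 ± 0.13 in the *Myc* cohort and -0.42 ± 0.11 between the control groups. *Tln2*, which encodes talin 2, had -0.52 ± 0.13, 0.36 ± 0.12 and -0.44 ± 0.11 in the same comparisons, and *Fras1*, which encodes a basement membrane protein, had -0.67 ± 0.11, 0.01 ± 0.14 and -0.72 ± 0.13. Of these 10 genes, *Fras1* between the control groups was the only call in the 4 comparisons (adjusted p = 0.032 from edgeR). These comparisons share control kidneys with those of *Hlf*.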

How the data were processed

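RNA of 18 whole kidneys was sequenced. The authors trimmed the reads with Trimmomatic 0.32, aligned them to GRCm38 with STAR 2.4.0 and deposited raw read counts per gene, not normalized, per the labels and the paper's methods. The column that ignores the strand was used for 45706 genes. Gene names, positions and exon lengths came from GENCODE vM21, and promoter windows from RefSeq (GRCm38.p6).

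Counts were filtered with filterByExpr, scaled by TMM and tested with edgeR 4.0.16 (quasi-likelihood F-test, R 4.3.3) with Benjamini-Hochberg adjustment over all genes tested at 0.05. Each comparison used only its own groups, and the difference between the KO fold changes used all 18 kidneys. The standard error is the log2 fold change divided by the square root of F. Correlations used log2 CPM with a prior count of 2. They were first meant as a description, and the permutation tests of these correlations, adjusted within each family of 21, 105 or 84 relations, were added later. The scripts were tested on simulated data. Python 3.11.15, numpy 2.4.6, pandas 2.3.3 and matplotlib 3.10.9 were used.

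The members and gene lists were chosen with earlier results of these data known. Named genes are the 7 members, of each list every gene called in a comparison or otherwise the 2 largest log2 fold changes, and the 5 highest and 5 lowest r with *Hlf* at a mean of at least 5 CPM. Results that need genes withheld from this text are not reported here, and counts over lists and relations include them. Genes named beyond this rule were chosen after their values were seen.

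Within a group no library repeated the counts of another: in each of the 33 within-group pairs, counts were farther apart than sampling noise allows (chi-square over its degrees of freedom, 5.95 to 74.0). Pairs across groups were not compared, and the check cannot show whether libraries came from separate mice. The labels describe separate mice. Alternatives were RLE size factors, DESeq2 1.42.0, limma 3.58.1 voom, no filter, the deeper kidneys as a covariate or left out, a replicate block, 1 fit of all kidneys and leaving out each kidney.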

Additional observations from a re-analysis of the deposited data

Results flagged for a closer look

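*Hlf* was set apart because its KO fold change differed between the cohorts by the interaction term of the fit over all 18 kidneys. It was lower in *Cxcl12* KO kidneys and higher in *Myc* KO kidneys than in their controls, and the difference was 1.56 ± 0.23 on the log2 scale. The gene was listed for this pattern, so that the value is a description. The 21 groups of 5 kidneys of the 7 regulators were also checked for a kidney far from the other 4, by a gap above 0.71 of the range (Dixon's limit). On the CPM scale none was found. On the log2 CPM scale 1 was found, *Ciart* in *Myc* control kidney 4, at 0.87 log2 CPM with a gap of 0.753 of the range. Chance would give about 1 in 20 groups.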

How the results depend on the processing

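Genes called in the *Cxcl12* cohort, 0 as reported, numbered 353 with DESeq2, 214 with no filter, 123 with the deeper kidneys as a covariate, 80 without them, 25 in 1 fit of all kidneys and 0 to 15 without 1 kidney, and members called, 0 as reported, numbered 1 (*Hlf*) under each of the first 5 and 0 to 1 without 1 kidney (1 without *Cxcl12* KO kidney 1 or 2). Genes called in the *Myc* cohort, 246 as reported, numbered 1131 with DESeq2, 954 with the covariate, 683 in 1 fit, 18 with the replicate block, 8 without the deeper kidneys and 21 to 877 without 1 kidney, and members called numbered 3 with DESeq2 (*Bhlhe40*, *Ciart*, *Nfil3*) and 0 to 1 without 1 kidney (*Nfil3* without *Myc* control kidney 3). Between the control groups, 202 genes became 852 with DESeq2, 467 with no filter, 45 with the covariate and 23 to 523 without 1 kidney, and members called became 2 with DESeq2 or no filter (*Dbp*, *Hlf*) and 1 to 3 without 1 kidney, with *Dbp* added without *Myc* control kidney 1 and *Ciart* and *Nfil3* without *Myc* control kidney 4. For the difference between the KO fold changes, 11 genes became 324 with DESeq2, 133 with the covariate, 3 with limma voom and 1 to 75 without 1 kidney, and members called were 0 to 1 without 1 kidney, 0 without *Cxcl12* control kidney 2 or 3. The causes were not tested.

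*Hlf* kept its direction in all 16, 18, 13 and 23 alternatives of the 4 comparisons, with log2 fold changes from -1.49 to -0.95, from 0.27 to 0.60, from -1.01 to -0.87 and from 1.45 to 1.67. It was called in 7 of 16, 0 of 18, 13 of 13 and 21 of 23, so that no alternative called it in the *Myc* cohort. Since *Hlf* was listed for its fold changes in these kidneys, its calls and directions under the alternatives are a description. Direction changed in 4 of 16 for *Dbp* and 1 of 16 for *Bhlhe40* in the *Cxcl12* cohort, in 4 of 13 for *Bhlhe40* and 1 of 13 for *Bhlhe41* between the control groups and in 1 of 23 for *Nfil3* in the difference. The median r of the 21 pairs of members was 0.25, and 0.14 to 0.35 without 1 kidney.

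Kidneys with the same replicate number were not treated as pairs. Their deviations correlated at a mean of 0.07 (-0.03 to 0.13, 3 pairs) in the *Cxcl12* and 0.05 (-0.21 to 0.40, 5 pairs) in the *Myc* cohort. The means for kidneys with different numbers were -0.02 and -0.01. So few pairs cannot show whether the numbers pair the kidneys. The replicate block gave 0 and 18 genes called in these cohorts and no member. Depth limits *Ciart*, *Dbp* and *Bhlhe41* most, with 27, 61 and 72 reads in the kidney with the fewest. The comparison inside the deeper kidneys was added after seeing the data and has no test.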
